A study of Mus musculus with 6 samples.

Results

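Kinesins are motor proteins that walk along microtubules or take them apart, and their genes fall into motors of the mitotic spindle and motors that carry cargo through the cytoplasm. The genes described here are all rows of the transcript table whose symbol begins with Kif or Kifc followed by a digit, 44 of 23930 genes. Of these 44, 13 were placed by textbook role among mitotic kinesins, 15 among transport kinesins and 13 among other kinesins, mostly of cilia or of microtubule growth. The remaining 3 are no motors: Kif1bp, a kinesin binding protein, Kif16bos, an antisense RNA, and Kif4-ps, a pseudogene.

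The RNA came from cells sorted by FACS for CD31, out of Lewis lung carcinoma (LLC) tumours under the skin, grown for 2 weeks in C57/Bl6 mice from a mouse lung cancer line. In the control group the injected LLC cells were controls (replicates 1, 2 and 3). In the BMP9 group they overexpressed BMP9, a bone morphogenetic protein that signals in endothelial cells (replicates 4, 5 and 6). BMP9 was thus overexpressed by the tumour line itself, while the RNA is that of CD31-positive cells. The labels give neither the age of the mice, nor the number of tumours behind each library, nor whether different animals were used. The p-values below therefore reflect the spread between these 6 samples only, and that spread may be technical. Levels are RPM, the reads of a gene scaled to the same total in each library, from a panel that amplifies a short segment of each gene.

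The libraries held 1321762 to 4583428 reads in control and 1974510 to 28380957 reads in BMP9, so that 3 reads corresponded to 0.655 to 2.27 RPM and 0.106 to 1.519 RPM. Such floors cover counting error only, since PCR copies without molecular tags are not independent molecules. Replicate 4 carries the same run time stamp as the controls, whereas replicates 5 and 6 carry a later one that no control shares. The sort marker Pecam1 was at 448 ± 84.3 RPM in control and 303 ± 53.5 RPM with BMP9 (SD, 3 libraries a group). The 16 endothelial markers, of which Pecam1 gave most, summed to 432 to 626 RPM in control and 354 to 474 RPM with BMP9. Other endothelial genes were low, with Cdh5 (VE-cadherin) at 9.81 ± 4.65 and 6.15 ± 2.63 RPM and Kdr (a VEGF receptor) at 11.5 ± 7.12 and 3.59 ± 1.02 RPM. The 15 T and NK cell markers summed to 5432 to 5929 RPM in control and 722 to 1268 RPM with BMP9. The sum of the 15 macrophage and monocyte markers was 4722 to 7320 RPM and 18929 to 24928 RPM. The cells are therefore called CD31-positive sorted cells here and not endothelial cells.

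A dividing cell makes its mitotic kinesins late in the cell cycle, when they build the spindle, move chromosomes and pinch the daughter cells apart, and removes most of them afterwards. Transport kinesins work in dividing and resting cells alike, and most of these motors move vesicles, endosomes, lysosomes and mitochondria outwards along microtubules. Levels of mitotic kinesin transcripts are therefore widely read as a sign of how many cells of a sample are in division.

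Mitotic kinesins were lower in BMP9 libraries and transport kinesins, as a class, were not. In all 13 mitotic kinesins the highest BMP9 library lay below the lowest control library, against 19.4% of the 18274 genes with a read. The summed level of the 13 genes was 745, 530 and 484 RPM in control (replicates 1, 2 and 3, the order kept throughout). With BMP9 it was 98.2, 99.3 and 96.3 RPM (replicates 4, 5 and 6). The 15 transport kinesins summed to 559, 561 and 483 RPM in control and 551, 516 and 481 RPM in BMP9 libraries, with overlapping groups. The mitotic sum was 1.33, 0.945 and 1.002 times the transport sum of the same library in control, and 0.178, 0.192 and 0.20 times in BMP9. In a bulk sample, fewer dividing cells and less of these transcripts per cell cannot be told apart.

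**Figure D1:**
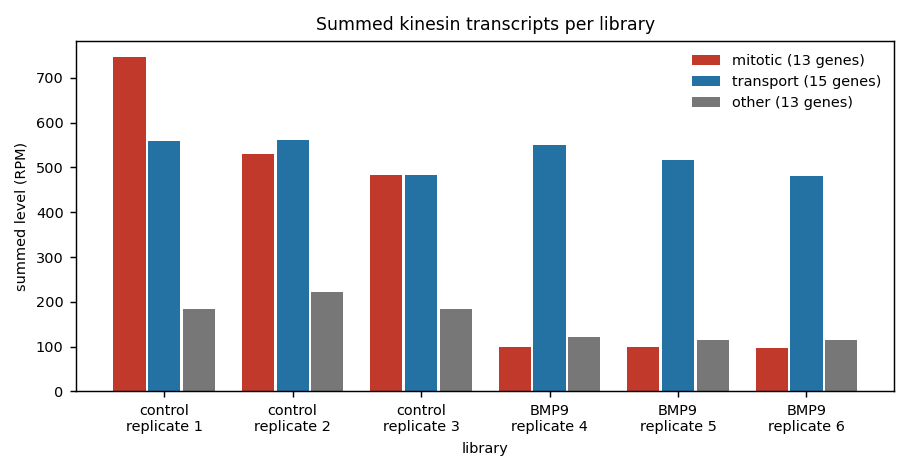
Summed level (RPM, linear axis from 0) of the 13 mitotic, 15 transport and 13 other kinesin genes in each of the 6 libraries. The mitotic bars stand at 484 to 745 RPM in control and at 96.3 to 99.3 RPM in BMP9 libraries, while the transport bars stand at 483 to 561 and 481 to 551 RPM.

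Genes were tested if they reached 5 RPM in at least 3 libraries, with limma on log2(RPM + 1), and called at an adjusted p under 0.05. All log2 fold changes below are BMP9 minus control on that scale, which understates the change of genes near 0. Of the 13 mitotic kinesins 11 passed the filter and all 11 fell, whereas 22.5% of the 9460 genes tested were called lower, 12.7% higher and 35.2% in either direction. The groups did not overlap, BMP9 lower, in 31.2% of genes tested. Their log2 fold changes ran from -3.74 to -1.92 with a median of -2.49, and the median of all genes tested was -0.24. In 5 of the 11, Kif4, Kif22, Kif11, Kif2c and Kif18a, no BMP9 library reached 5 RPM. These 5 passed through the control group alone and had to differ. With no filter, where 8.27% of genes were called lower and 4.64% higher, 12 of the 13 mitotic kinesins fell and Kif15 did not pass (adjusted p = 0.057).

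Of the 15 transport kinesins 11 passed the filter, 1 fell, none rose and 10 did not pass the test, with a median of 0.10. The one that fell was Kif5b. In the limma fit without adjustment 3 of the 11 had a p under 0.05. Over all genes tested 35.2% passed even with adjustment, so this count is no result about the class. Within the earlier run time stamp, where BMP9 replicate 4 alone stood against the controls, the 11 tested mitotic kinesins were all called lower, at -4.21 to -1.72. After TMM scaling, which moved the median of all genes to -0.02, all 11 tested mitotic kinesins were still called lower and the transport class had 0 lower and 1 higher. Calls over all genes were 2130 lower and 1200 higher as deposited and 1429 and 1580 with TMM (15.1% and 16.7%).

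**Figure D2:**
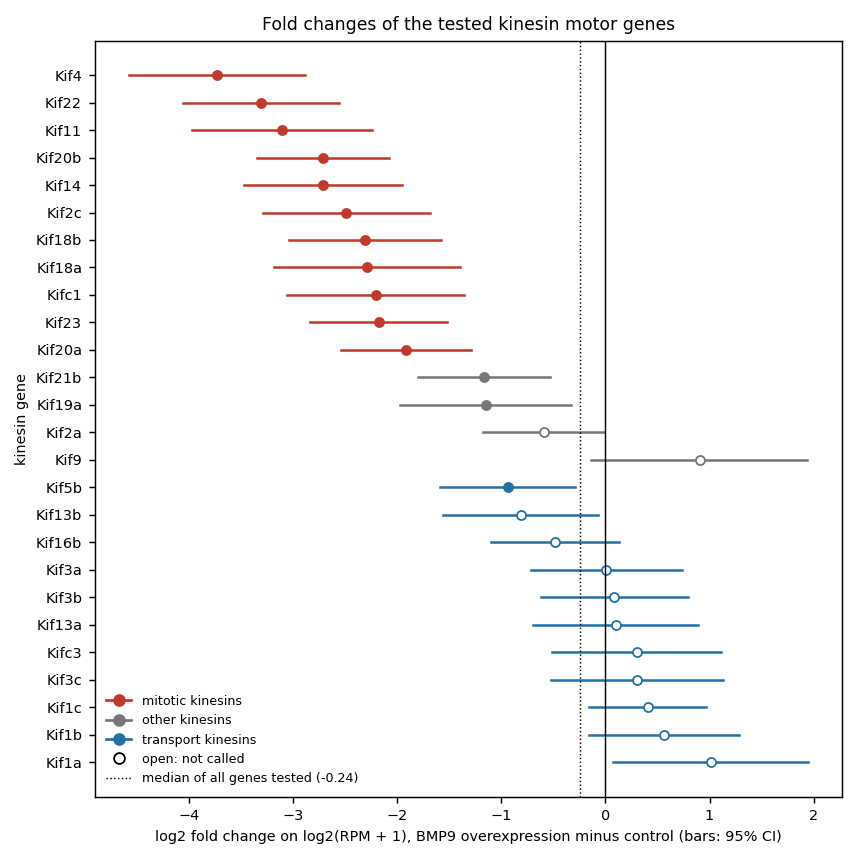
Log2 fold change with its 95% confidence interval for the 26 tested kinesin motor genes, BMP9 minus control on log2(RPM + 1), coloured by class, with open points for genes not called. The 11 mitotic kinesins lie between -3.74 and -1.92, all left of every other kinesin tested, and the dotted line is the median of all genes tested, -0.24.

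Among the kinesins found by symbol the 3 largest differences were those of Kif4, Kif22 and Kif11, motors that hold the spindle open or move chromosomes. Kif4, a chromokinesin of chromosome arms and of the spindle midzone (chromosome X, 100625737 to 100727214, mm10), was at 40.6, 21.9 and 21.5 RPM in control. The BMP9 libraries held 0.506, 1.36 and 1.55 RPM, from 1, 6 and 44 reads. Its log2 fold change of -3.74 (SE 0.40, adjusted p = 1.2e-05) ranked 12 from the bottom of the 9460 genes tested. Like Kif22 and Kif11, Kif4 passed the filter through the control group alone and had to differ. Kif4 had no library of one group near the other. Its pseudogene Kif4-ps held 1 read in all.

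Kif22, also called Kid, a chromokinesin that binds DNA and pushes chromosome arms away from the poles (chromosome 7, 127027729 to 127042471), was at 48.2, 46.9 and 29.5 RPM in control and 3.55, 3.86 and 2.36 RPM in BMP9 libraries. Its log2 fold change was -3.31 (SE 0.35, adjusted p = 1.2e-05). Kif11, the motor known as Eg5 that slides microtubules to push the spindle poles apart (chromosome 19, 37376403 to 37421859), was at 62.2, 30.3 and 20.5 RPM in control and 3.55, 3.18 and 2.50 RPM in BMP9 libraries. It fell by 3.11 on the log2 scale (SE 0.41, adjusted p = 4.8e-05). Its control replicate 1 lay far above the other controls, and all controls lay clear of the BMP9 libraries.

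Kif15, which can stand in for Kif11 at the spindle (chromosome 9, 122951046 to 123018733), was below the filter with 11.3, 3.78 and 5.50 RPM in control and 0, 1.81 and 0.916 RPM in BMP9 libraries. Those BMP9 values were 0, 8 and 26 reads. Without the filter its log2 interval was -3.36 to -0.74, and the gene was not called.

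Motors that act on microtubule ends were lower by a similar amount. Kif2c, or MCAK, which takes microtubule ends apart at centromeres (chromosome 4, 117159639 to 117182639), was at 29.7, 14.4 and 24.5 RPM in control and 2.53, 3.86 and 2.92 RPM in BMP9 libraries (log2 fold change -2.49, SE 0.38, adjusted p = 0.00016). Kif18b, of astral microtubules (chromosome 11, 102905529 to 102925124), was at 40.8, 31.0 and 39.5 RPM and 9.12, 7.03 and 4.48 RPM (-2.31, SE 0.34, adjusted p = 0.00014). Kif18a, which dampens the swings of chromosomes at the metaphase plate (chromosome 2, 109280738 to 109341747), was at 5.89, 6.05 and 5.0 RPM in control and 0, 0.907 and 0.317 RPM in BMP9 libraries (-2.29, SE 0.42, adjusted p = 0.00073). Kif18a is the tested member nearest to the filter and rested on 45 control reads and 13 BMP9 reads. Groups were apart in all 3 genes.

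Kifc1, also called HSET, walks the other way from most kinesins and gathers microtubules into spindle poles (chromosome 17, 33875659 to 33890661). It was at 54.1, 21.2 and 45 RPM in control and 10.6, 7.48 and 4.79 RPM in BMP9 libraries, and fell by 2.21 on the log2 scale (SE 0.40, adjusted p = 0.00069). The gap between its lowest control library, replicate 2, and its highest BMP9 library, replicate 4, was the narrowest ratio among the tested mitotic kinesins. The near copy Kifc5b (chromosome 17, 26917091 to 26932583) was below the filter at 3.71, 1.51 and 2.0 RPM in control and 0, 0.227 and 0.211 RPM in BMP9 libraries. The longest annotated transcripts of the pair were 95.9% identical over 2375 aligned bases, so which of them gave these reads is uncertain.

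Motors of cytokinesis, the last step of division, had log2 fold changes from -2.72 to -1.92. Kif20a, or MKLP2, which brings Aurora B to the spindle midzone (chromosome 18, 34624613 to 34633277), was at 155, 97.6 and 95 RPM in control and 25.8, 33.8 and 28.4 RPM in BMP9 libraries. Its log2 fold change of -1.92 (SE 0.29, adjusted p = 0.00018) was the smallest of the tested mitotic kinesins. Kif23, or MKLP1, the motor subunit of the centralspindlin complex (chromosome 9, 61915905 to 61946774), was at 119, 110 and 68.5 RPM and 22.3, 16.6 and 23.5 RPM (-2.18, SE 0.31, adjusted p = 9.4e-05). Both genes kept well over 3 reads in each BMP9 library, and their groups were far apart.

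Kif20b, a midbody motor (chromosome 19, 34922361 to 34975745), had narrow control values of 113, 101 and 92.5 RPM and was at 11.1, 14.7 and 19.0 RPM in BMP9 libraries. It fell by 2.72 on the log2 scale (SE 0.30, adjusted p = 1.4e-05). Kif14, which works with citron kinase in cytokinesis (chromosome 1, 136466343 to 136531511), was at 62.0, 43.1 and 35 RPM and 9.12, 4.54 and 5.36 RPM (-2.71, SE 0.36, adjusted p = 5.2e-05). Within the control group replicate 1 was the highest library for 12 of the 13 mitotic kinesins, and Kif18a was the exception. Leaving out replicate 1 left all 11 tested members called lower, at -3.45 to -1.69.

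**Figure D3:**
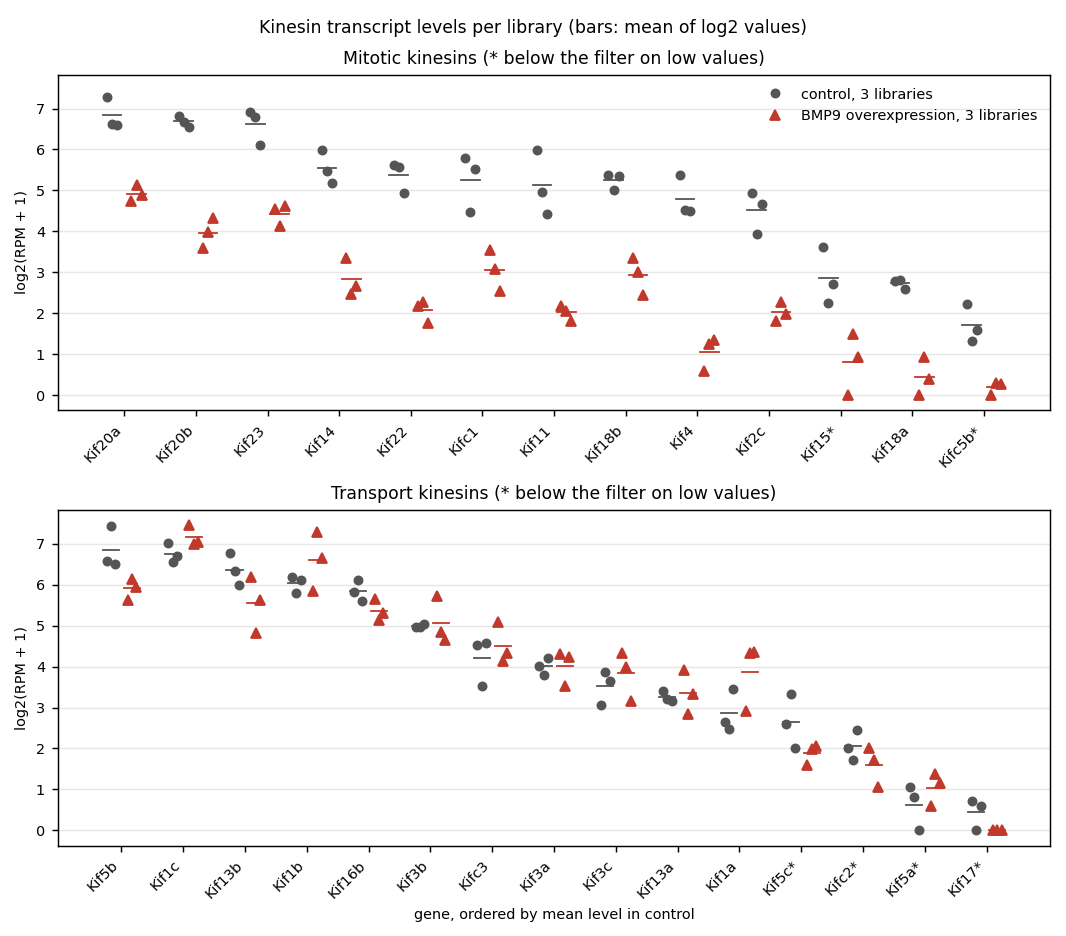
Level of each mitotic kinesin (upper panel) and transport kinesin (lower panel) as log2(RPM + 1) in the 3 control libraries (circles) and the 3 BMP9 libraries (triangles), with bars at the group means. For all 13 mitotic genes the triangles lie below the circles, and among the 15 transport genes this holds for Kif5b alone.

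Exons of Kif4 overlap those of Pdzd11 on the opposite strand, as do those of Kif18a with Mettl15 and of Kif20a with Cdc23, and those of Kif22 with an antisense RNA. Whether reads were assigned by strand is not given in the sources used here. Whether the amplified segments lie in the shared bases was not checked. Reads of these pairs may therefore be mixed. For the other 9 mitotic kinesins no exon of another gene overlapped. Among the kinesins described next, Kif5b, Kif3c, Kifc2, Kifc3, Kif2a, Kif6, Kif7, Kif26b, Kif27 and Kif1bp overlap genes of the opposite strand in the same way.

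Promoters of the mitotic kinesins share short sequence elements that the selection by symbol did not use. Genes of late cell cycle stages are known to carry a cell cycle homology region (CHR, searched as the letters TTTGAA and in its less common form as TTCGAA) near the start site, often behind a CCAAT box, where the DREAM and B-Myb complexes bind. RefSeq promoter windows (build GRCm38.p6, 250 bases before to 50 after the start site) matched 12 of the 13 mitotic kinesins. A CHR match on either strand lay in 11 of these 12 windows (91.7%), in 1 of 12 transport kinesin windows (10 genes, 8.33%) and in 17.3% of the 21115 windows of genes in the table. CCAAT on either strand lay in 8 of 12, 4 of 12 and 37.4% of windows. The mitotic kinesin window with no CHR match was that of Kif18a. The closely similar windows of Kifc1 and its near copy Kifc5b count separately in these shares. For E2F factors the core GCGGGAA was searched on both strands, and with it the variant GCGCGAA of the same length. Further variants searched were the core GCGCCAA and, as the last, the core GCGGCAA. At least 1 of these E2F-type cores lay in 2 of 12, 1 of 12 and 11.8% of windows. None of these motifs contains another, and a match describes the letters only.

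The following stretches, from 90 bases before to 30 bases after the start site, show the CHR and CCAAT letters in capitals (read on either strand, so that TTCAAA and ATTGG are the same elements) and were chosen for display because they hold CHR letters.
Kif11, chr19:37376292-37376411, plus strand: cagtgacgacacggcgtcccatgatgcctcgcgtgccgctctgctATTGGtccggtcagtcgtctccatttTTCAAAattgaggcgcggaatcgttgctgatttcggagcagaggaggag
Kif15, chr9:122950991-122951110, plus strand: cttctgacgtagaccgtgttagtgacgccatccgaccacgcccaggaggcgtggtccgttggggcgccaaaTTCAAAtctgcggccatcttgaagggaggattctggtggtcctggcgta
Kif22, chr7:127042391-127042510, minus strand: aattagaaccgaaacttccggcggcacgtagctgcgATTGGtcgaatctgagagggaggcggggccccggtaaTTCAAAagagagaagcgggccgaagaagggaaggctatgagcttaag
Kif18b, chr11:102925095-102925214, minus strand: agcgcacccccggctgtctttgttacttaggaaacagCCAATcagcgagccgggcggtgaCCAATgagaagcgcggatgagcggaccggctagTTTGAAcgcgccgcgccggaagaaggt
Kif4, chrX:100625975-100626094, plus strand: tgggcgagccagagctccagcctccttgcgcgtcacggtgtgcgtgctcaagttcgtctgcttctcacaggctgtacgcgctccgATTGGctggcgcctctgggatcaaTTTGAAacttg
Kif23, chr9:61946770-61946889, minus strand: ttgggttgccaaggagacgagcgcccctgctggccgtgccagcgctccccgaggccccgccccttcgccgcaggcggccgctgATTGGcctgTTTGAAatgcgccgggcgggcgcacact
Kif20b, chr19:34922268-34922387, plus strand: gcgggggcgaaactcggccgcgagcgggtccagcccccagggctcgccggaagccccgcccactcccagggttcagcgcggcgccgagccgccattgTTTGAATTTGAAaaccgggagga
Kifc1, chr17:33890604-33890723, minus strand: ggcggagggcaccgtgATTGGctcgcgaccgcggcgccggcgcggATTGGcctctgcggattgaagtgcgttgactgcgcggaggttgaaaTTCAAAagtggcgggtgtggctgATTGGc

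Of the other mitotic kinesins with a window, Kif18a has no CHR letters, those of Kif14 and Kif2c lie farther upstream, 228 and 103 bases before the start site, and Kifc5b is the near copy of Kifc1. The stretches of Kif18a and Kif2c, without CHR letters, are printed for contrast. Among mitotic and transport windows that hold CHR letters, the RefSeq start sites farthest inside the gene as GENCODE draws it are those of Kif1a, Kif2c and Kif14. Their matches may therefore not lie at the main promoter of the gene.
Kif18a, chr2:109280648-109280767, plus strand: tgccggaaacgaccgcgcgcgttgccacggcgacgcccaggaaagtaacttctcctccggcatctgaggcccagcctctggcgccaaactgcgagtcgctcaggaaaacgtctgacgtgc
Kif2c, chr4:117178743-117178862, minus strand: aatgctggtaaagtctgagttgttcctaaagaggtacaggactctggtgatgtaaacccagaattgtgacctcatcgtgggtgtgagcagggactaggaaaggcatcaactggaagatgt

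In the 8 displayed windows chosen for CHR letters these begin between 19 bases before and 20 bases after the start site, and in Kif20b 2 matches stand side by side. For Kif11, Kif22, Kif18b, Kif23, Kif4 and Kifc1 a CCAAT box precedes them. Counted over all 12 mitotic kinesins, 9 windows had a CHR match from 50 bases before to 50 after the start site (75%), against 4.59% of windows of genes in the table, a range chosen after the positions were seen. Kifc1 and Kifc5b are again counted separately. For comparison the same stretch of 2 transport kinesins is given, Kif1c with neither element and Kif3a with a CCAAT box alone.
Kif1c, chr11:70700458-70700577, plus strand: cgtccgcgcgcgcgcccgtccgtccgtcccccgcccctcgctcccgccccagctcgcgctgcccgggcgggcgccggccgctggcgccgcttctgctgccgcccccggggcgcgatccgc
Kif3a, chr11:53567279-53567398, plus strand: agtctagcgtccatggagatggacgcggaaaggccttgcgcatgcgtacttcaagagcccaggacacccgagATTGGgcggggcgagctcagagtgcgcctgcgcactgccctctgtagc

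**Figure D4:**
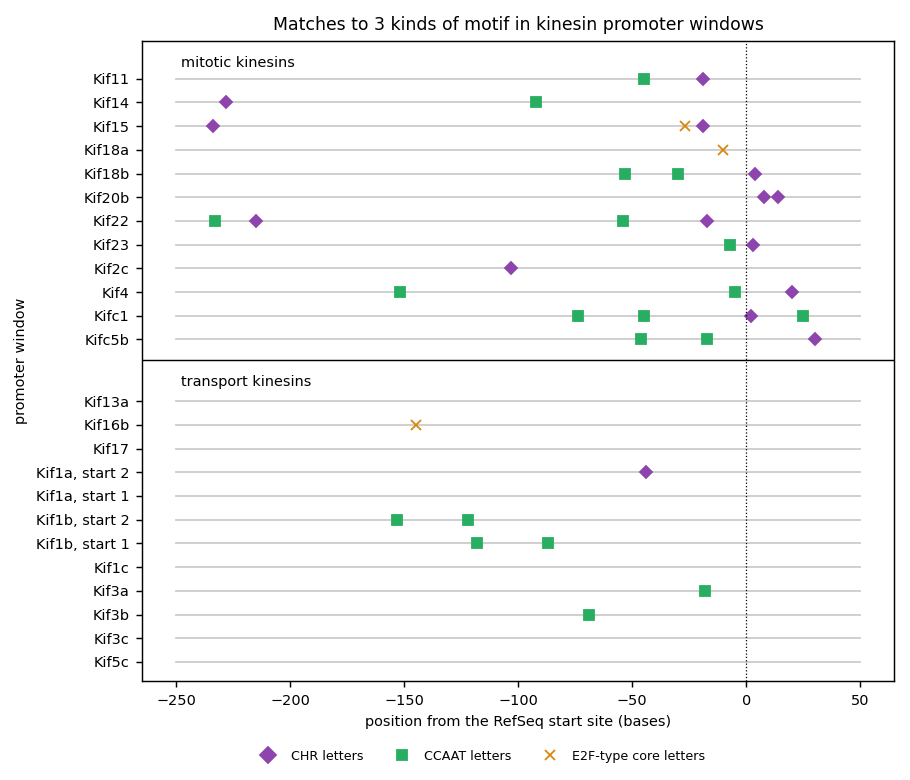
Positions of CHR, CCAAT and E2F-type core letters, in bases from the RefSeq start site, in the promoter windows of 12 mitotic and 10 transport kinesin genes (12 windows each). CHR letters lie in 11 of 12 mitotic windows, mostly close to the start site, and in 1 of 12 transport windows.

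Among transport kinesins the only call fell on a heavy chain of conventional kinesin. Kif5b, the form found in most cells, which carries lysosomes and mitochondria (chromosome 18, 6201002 to 6242174), was at 95.1, 172 and 90.5 RPM in control and 48.6, 69.6 and 61.0 RPM in BMP9 libraries. Its log2 fold change of -0.94 (SE 0.31, adjusted p = 0.027) came from groups that did not overlap. With TMM it was -0.71 (adjusted p = 0.10), and without control replicate 2, the highest library, -0.64 (adjusted p = 0.12). The neuronal forms Kif5a and Kif5c were below the filter, at 0 to 1.09 and 3.0 to 9.08 RPM in control and 0.506 to 1.59 and 2.03 to 3.17 RPM in BMP9 libraries.

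The vesicle motors of the Kif1 branch had higher means in BMP9 libraries, and none passed the test. Kif1a, known for carrying synaptic vesicle precursors (chromosome 1, 93015464 to 93101951), was at 5.24, 4.54 and 10 RPM in control and 6.58, 19.0 and 19.5 RPM in BMP9 libraries (1.01, 95% CI 0.07 to 1.95, adjusted p = 0.087). Kif1b, which carries mitochondria and synaptic vesicle precursors (chromosome 4, 149176319 to 149307693), was at 71.8, 54.5 and 68.5 RPM and 56.2, 156 and 98.9 RPM (0.56, adjusted p = 0.21). For both genes BMP9 replicates 5 and 6, of the later run time stamp, were above all controls and replicate 4 lay among them. Within the earlier stamp the log2 fold changes were 0.07 for Kif1a and -0.19 for Kif1b, and without replicate 4 they were 1.49 (adjusted p = 0.0071) and 0.94 (adjusted p = 0.018). The stamp and the group cannot be told apart for these 2 genes. With TMM Kif1a was called higher (1.22, adjusted p = 0.047). Kif1c, which acts at the Golgi and in the podosomes of macrophages (chromosome 11, 70700548 to 70731964), was at 129, 93.8 and 103 RPM and 175, 127 and 131 RPM (0.41, adjusted p = 0.25).

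No motor of endosomes passed the test with all libraries. Kif13b, a motor of membrane signalling cargo (chromosome 14, 64647265 to 64809617), was at 109, 79.4 and 63.0 RPM in control and 72.4, 27.4 and 48.6 RPM in BMP9 libraries (-0.82, 95% CI -1.56 to -0.07, adjusted p = 0.083). Without BMP9 replicate 4, the highest BMP9 library, Kif13b was called lower at -1.14 (adjusted p = 0.012). Kif16b, which moves early endosomes outwards (chromosome 2, 142617474 to 142901531), was at 55.4, 68.1 and 48.0 RPM and 49.1, 34.2 and 38.5 RPM (-0.49, adjusted p = 0.21). Kif13a, of recycling endosomes, was at 9.60, 8.32 and 8.0 RPM and 14.2, 6.12 and 9.09 RPM (0.10, adjusted p = 0.86). Groups overlapped in Kif13b, Kif16b and Kif13a.

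The heterotrimeric kinesin of cilia and vesicles, built of Kif3a, Kif3b or Kif3c and the adaptor Kifap3, had no member that passed the test. Kif3a was at 15.3, 12.9 and 17.5 RPM in control and 18.7, 10.4 and 17.8 RPM in BMP9 libraries, a log2 difference of 0.01 (95% CI -0.72 to 0.74). Kif3b was at 30.1, 30.3 and 32.0 RPM and 52.2, 27.7 and 24.0 RPM (0.08, 95% CI -0.62 to 0.79). The control values of Kif3b were tight and the spread lay in the BMP9 libraries, with replicate 4 the highest. Kif3c was at 7.42, 13.6 and 11.5 RPM and 19.2, 15.0 and 7.96 RPM (0.30, 95% CI -0.52 to 1.13), and Kifap3 had a log2 fold change of 0.19 (SE 0.32). Kifc3, a motor of the Golgi and of cell junctions, was at 22.0, 10.6 and 23.0 RPM and 32.9, 16.6 and 19.0 RPM (0.30, 95% CI -0.51 to 1.11). Changes inside these intervals, which for Kif3a run from -0.72 to 0.74, were not detectable here. Kifc2 and Kif17 were below the filter, at no more than 4.5 and 0.655 RPM in any library.

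Of the 13 other kinesins 4 were tested, of which 2 fell, while 22.5% of all genes tested were called lower. With no filter 1 of the other kinesins was called lower, against 8.27% of genes with a read. Kif21b, a motor of neurons and T cells that limits microtubule growth (chromosome 1, 136131389 to 136177998), was at 73.5, 73.4 and 58.5 RPM in control and 38.5, 30.4 and 22.5 RPM in BMP9 libraries (-1.17, SE 0.30, adjusted p = 0.0071). Within the earlier run time stamp it was -0.81 (adjusted p = 0.11). Kif19a, which trims the microtubules of cilia (chromosome 11, 114765388 to 114790739), was at 6.11, 5.30 and 8.0 RPM and 3.04, 2.50 and 1.62 RPM (-1.15, SE 0.39, adjusted p = 0.031), and with TMM -0.96 (adjusted p = 0.067). Kif19a reached 5 RPM in control libraries only and so passed the filter through the group where it is high. Kif2a, a close relative of Kif2c with roles in neurons and in mitosis (chromosome 13, 106958996 to 107022126), was at 84.7, 137 and 102 RPM and 67.9, 69.4 and 71.7 RPM (-0.59, 95% CI -1.18 to -0.01, adjusted p = 0.10). The groups of Kif2a did not overlap, yet the difference did not pass the test. Kif9, of motile cilia and flagella, was at 8.73, 1.51 and 8.0 RPM and 10.1, 7.48 and 14.3 RPM (0.90, adjusted p = 0.16).

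The centriole motor Kif24 was below the filter at 9.82, 3.78 and 5.50 RPM in control and 2.03, 1.81 and 1.83 RPM in BMP9 libraries, without overlap. Kif6, Kif12 and Kif2b had no read among the 42670098 of all libraries, so 3 reads set an upper limit of 0.38 RPM over the control libraries and 0.0863 RPM over the BMP9 libraries, most of whose reads are from replicate 6. Kif7, Kif21a, Kif26a, Kif26b and Kif27 stayed at or below 2.04 RPM in every library. Kif1bp, the binding protein, was at 28.8, 18.9 and 28.5 RPM and 36.5, 26.1 and 33.7 RPM (0.34, adjusted p = 0.43).

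Some relatives by motor sequence stood apart where one of them is mitotic, and others did not. Kif14, Kif1a, Kif1b, Kif1c, Kif13a, Kif13b and Kif16b belong to one kinesin family, and of these 7 tested genes Kif14 alone passed the test. In the pair of microtubule depolymerases, Kif2c had a log2 interval of -3.29 to -1.69 and Kif2a one of -1.18 to -0.01. In the pair of minus-end motors, that of Kifc1 was -3.06 to -1.36 and that of Kifc3 -0.51 to 1.11. The difference between relatives was not tested, and the intervals of each of these pairs do not overlap. Those of Kif18b (-3.04 to -1.58) and Kif19a (-1.97 to -0.33), whose transcripts aligned over 841 bases, do overlap. Without the filter the intervals of Kif2c (-3.4 to -1.59) and its relative Kif24 (-2.24 to -0.29) overlap too.

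The partners of mitotic kinesins at the spindle moved with them. Of 29 measured spindle and midzone genes 28 were tested, 27 fell and none rose, with a median of -2.45. The shares over all genes tested were 22.5% lower and 12.7% higher, with a median of -0.24. Anln, an actin-binding protein of the cleavage furrow, had -0.55 (adjusted p = 0.32). In 8 of the 28 no BMP9 library reached 5 RPM, so these 8 passed the filter through the control group alone and had to differ. Cenpe, the kinesin of kinetochores that the rule by symbol does not take in, was at 101, 65.8 and 52.0 RPM in control and 6.58, 7.48 and 7.05 RPM in BMP9 libraries (-3.15, SE 0.33, adjusted p = 1e-05). The smallest p-values belonged to Nusap1 (-4.24), Birc5 (-2.88), Cit (-3.44), the citron kinase that works with Kif14, Spc25 of the kinetochore (-3.35) and Tpx2, a spindle assembly factor (-3.67). Cit, Spc25 and Tpx2 are among the 8 genes that passed the filter through the control group alone. The general proliferation genes Mki67 and Top2a fell too, with log2 fold changes of -3.79 and -3.37.

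The mitotic kinesin sum was 33.5% to 38.2% of the summed spindle partners in control libraries and 35.9% to 39.4% in BMP9 libraries, with overlapping ranges. Expressed against the summed T and NK cell markers it was 13.1%, 8.93% and 8.91% in control and 7.75%, 8.79% and 13.35% with BMP9, again with overlap. Against the macrophage and monocyte markers it was 6.61% to 11.2% and 0.39% to 0.52%. All 15 measured T and NK cell markers fell, with a median log2 fold change of -2.85, against 22.5% of all genes tested. The 13 tested macrophage and monocyte markers rose, with a median of 2.36, against 12.7% of all genes tested. No T and NK cell or macrophage marker was at 0 in all libraries. The part of these cell types in the fall of the mitotic kinesins was not tested.

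Transcription regulators of the cell cycle were lower in part. Of 18 genes of the E2F, DREAM and B-Myb group, all tested, 8 fell, none rose and 10 did not pass, with a median of -0.92. Among all genes tested 22.5% were called lower and the median was -0.24. With no filter 7 of the 18 were called lower, against 8.27% of genes with a read. In 3 of the 18, E2f7, Foxm1 and Rbl1, no BMP9 library reached 5 RPM, so they passed the filter through the control group alone and had to differ. The 8 were E2f7 (-2.78), Foxm1 (-2.11), Rbl1 (-1.95), Mybl2 (B-Myb, -1.90), Mybl1 (-1.74), E2f8 (-1.69), Tfdp1 (-1.46) and Rbbp4 (-1.06). Foxm1, which acts with B-Myb at CHR elements, was at 5.24, 6.81 and 11.5 RPM in control and 1.01, 0.907 and 0.987 RPM in BMP9 libraries. E2f1, E2f2, E2f3, E2f4 and E2f5 did not pass, at -0.61, 0.58, -0.26, -0.30 and -0.11.

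The light chains, adaptors and cargo linkers of transport kinesins had calls in both directions. Of 22 measured genes 18 were tested, 5 rose, 1 fell and 12 did not pass, with a median of 0.31. Over all genes tested 12.7% were called higher and 22.5% lower, and with no filter 3 of the 22 linkers were called higher and none lower. Plekhm2, or SKIP, links lysosomes to conventional kinesin and was at 14.2, 21.9 and 23.0 RPM in control and 56.7, 99.6 and 82.8 RPM in BMP9 libraries (1.95, SE 0.32, adjusted p = 0.00031). The lysosomal GTPases that recruit it, Arl8a and Arl8b, rose by 1.16 and 0.83 on the log2 scale. Fez2, a kinesin adaptor, rose by 1.81 and Spag9, or JIP4, by 1.17. Kif5b, the motor this link ends on, was lower, as given above. The member that fell was Rhot2, a mitochondrial GTPase (-1.45, adjusted p = 0.047), at 96.7, 28.0 and 66.0 RPM and 8.10, 51.9 and 18.1 RPM with overlapping groups, and it was not called with TMM. None of the light chains tested was called, with Klc1 at -0.58, Klc2 at -0.76 and Klc4 at 0.80. Macrophage and monocyte markers rose in the same libraries, and their part in these linkers was not tested.

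Dynein, the motor that walks towards the cell centre, had members called in both directions. Of 25 tested genes of dynein, dynactin and their adaptors 5 fell, 3 rose and 17 did not pass, with a median of -0.06. These counts lie near the shares over all genes tested, 22.5% lower and 12.7% higher. The heavy chain Dync1h1 had 0.47 (adjusted p = 0.21). Hook1, an endosome adaptor, had the smallest p (-3.60, adjusted p = 4.4e-05) and passed the filter through the control group alone, with 0, 1.81 and 0.705 RPM in BMP9 libraries. Next came Ndel1 (1.47), Dctn1, the large dynactin subunit (-1.20), Nde1, a dynein regulator of dividing cells (-1.02), and Actr10 (1.22).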

How the data were processed

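RNA of sorted cells was amplified with the Ion AmpliSeq Transcriptome Mouse Gene Expression panel for Ion Torrent, per the labels' protocols. The authors deposited 1 table of RPM (a gene's reads scaled to a fixed library total) per gene and library, with mm10 as build per the submitters' processing notes. Aligner and counter: not given in the sources used here. In each library, RPM as deposited comes in whole multiples of 1 read's worth (100% of values within 0.05 reads), so whole reads and library totals could be recovered.

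Samples were grouped by title. The test was limma 3.58.1 (trend, R 4.3.3) on log2(RPM + 1) for genes that reached 5 RPM in 3 or more libraries. Adjustment was by Benjamini-Hochberg over all genes tested with a threshold of 0.05, and the fit was tested on simulated data. Confidence intervals are 95%. Alternatives were other pseudocounts and filters, TMM, quantile normalization, the run time stamp, leaving out each library, and edgeR 4.0.16 and DESeq2 1.42.0 on recovered reads. Gene coordinates are from GENCODE M21 (mm10), promoters from RefSeq, and transcripts were aligned with blastn 2.17.0.

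Every gene matching the symbol rule is accounted for, every tested kinesin is given, and of the partner lists up to 5 genes with the smallest p and of the regulators any tested gene could be named. Of the marker lists only a defining gene could be named, beside Mki67 and Top2a. Cenpe, Anln, Rhot2, Kifap3, the light chains and Dync1h1 were named after their values were seen. Members, classes and lists were chosen with earlier results of these data known.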

Additional observations from a re-analysis of the deposited data

How the results depend on the processing

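The fall of the mitotic kinesins held under every alternative run: all 11 tested members (8 where a mean of at least 20 RPM was asked for) stayed called lower, with single-gene values between -4.21 and -0.98 and a largest adjusted p of 0.026. Their median was -2.76 with a pseudocount of 0.5, -1.99 with 5 and -2.22 with quantile normalization. The mitotic minus transport difference in mean log2 level was -1.77 with a pseudocount of 5, which compresses low values by construction. With that pseudocount the median was -0.60 for other kinesins, -1.94 for spindle partners and -0.66 for the regulators.

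Transport kinesins moved more. Members called lower were 0 with no filter, TMM, quantile normalization, edgeR and DESeq2, and members called higher were 1 with TMM or quantile normalization and 2 with edgeR or DESeq2. Over all 9460 genes tested, calls higher were 1200 in the main fit, 1580 with TMM, 1503 with quantile normalization, 1693 with edgeR and 1771 with DESeq2. Calls lower were 2130, 1429, 1538, 1421 and 1546 in the same order. The transport median was 0.31 with TMM, 0.41 with quantile normalization, 0.29 under both run time stamp settings, 0.39 with edgeR and 0.38 with DESeq2. Kif1b turned to -0.19 with the stamp as covariate and within the earlier stamp, settings in which BMP9 replicate 4 alone is compared with the controls and is assumed to vary like them. Other kinesins had 1 called lower with no filter, a mean of at least 20 RPM, TMM, quantile normalization and DESeq2, and 0 under both stamp settings. Their median was -0.11 with no filter, -0.65 with TMM, -0.67 with quantile normalization, -0.66 with edgeR and -0.67 with DESeq2.

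For spindle partners the median was -2.23 with TMM and -2.18 with quantile normalization. For kinesin adaptors, members called lower were 0 with no filter, the mean of at least 20 RPM, TMM, quantile normalization, edgeR and DESeq2 and 3 under both stamp settings, and 3 were called higher with no filter. Their median was 0.16 with no filter, 0.54 with TMM, 0.58 with quantile normalization, 0.46 under both stamp settings, 0.59 with edgeR and 0.57 with DESeq2. For dynein and dynactin 3 were called lower with no filter, the mean of at least 20 RPM, TMM, quantile normalization, the earlier stamp alone and edgeR, and 5 were called higher with TMM and edgeR and 6 with DESeq2. Its median changed sign to 0.12 with the mean of at least 20 RPM, 0.16 with TMM, 0.18 with quantile normalization, 0.02 under both stamp settings and 0.22 with edgeR and DESeq2. Calls higher over all genes were also more with TMM, edgeR and DESeq2, as given above. For the regulators the median was -0.64 with the mean of at least 20 RPM, where 4 were called lower, -0.70 with TMM, -0.63 with quantile normalization, -1.08 under both stamp settings, -0.68 with edgeR and -0.69 with DESeq2. The T and NK marker median was -2.31 under both stamp settings, and the macrophage marker median was 1.87 with no filter, 2.71 under both stamp settings and 2.62 with edgeR.

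Leaving out 1 library at a time gave 11 mitotic kinesins lower each time, 0 to 1 transport kinesins lower and 0 to 2 higher, with transport medians of -0.13 to 0.30, and 1 to 2 other kinesins lower. Kifc3 ran from -0.04 to 0.49, Kif3a from -0.13 to 0.26, Kif3b from -0.25 to 0.30 and Kif13a from -0.18 to 0.36, none called in any of these. Adaptors had 0 to 1 lower and 3 to 6 higher with medians of 0.21 to 0.43, dynein genes 2 to 5 lower with medians of -0.17 to 0.11, and the T and NK marker median ran from -3.07 to -2.46. Kif5b lost its call without control replicate 2 or BMP9 replicates 4 or 6, and Kif19a without control replicates 1 or 3 or BMP9 replicates 5 or 6. The cause of these changes was not tested. No paired analysis was possible because the 2 groups share no replicate numbers. In control replicate 2, the shallowest library, 3 reads are 2.27 RPM, which limits what can be seen of the kinesins below the filter.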

Other observations

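CHR letters near the start site were also frequent in promoters of the spindle partners, which are not kinesins by symbol. From 50 bases before to 50 after the start, 22 of 29 windows of these genes held them (75.9%), against 6.52% of windows of all genes called lower and 3.69% of windows of all genes tested. No window of the kinesin adaptors, 27 in number, held them in that range. The same was true of the 12 windows of the T and NK cell markers, a set that fell as well. The range and these gene sets were chosen after the positions were seen, and the values are descriptions of the letters only.

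Markers of further cell types went in several directions in the same libraries. Of the tested markers, 5 of 6 neutrophil genes rose and 1 fell, and 3 of 3 platelet and megakaryocyte genes rose. Among B cell genes 1 of 5 rose, and among fibroblast and pericyte genes 2 of 4 rose and 1 fell. For epithelial genes 1 of 3 rose, and for endothelial genes 1 of 5 rose and 1 fell. The shares over all genes tested were 12.7% higher and 22.5% lower, so single calls in such small sets say little of a cell type. The epithelial markers summed to 169 to 192 RPM in control and 185 to 284 RPM in BMP9 libraries, and most of this was Cdh1, named after its values were seen (mean 171 and 220.3 RPM). The means were 0.145 and 2.18 RPM for Krt8 and 7.02 and 3.08 RPM for Epcam (adjusted p = 0.085 with limma). Their part in the kinesin values was not tested.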
